A study of Mus musculus with 6 samples.

Results

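The simple epithelial keratins described here are 6 genes: Krt8 and Krt7, which encode type II keratins, and Krt18, Krt19, Krt17 and Krt42, which encode type I keratins. They are covered by 10 probe sets that the array's annotation assigns to 1 of these symbols, out of 45037 probe sets without controls and among 18194 genes with such a probe set, and were picked by name from the keratin family with results of these same arrays known. The data are 6 Affymetrix mouse arrays, on which a transcript is read by a set of short DNA probes, hybridized with total RNA from R1 mouse embryonic stem cells, cells of the early embryo that grow indefinitely and can form all its tissues. Cells of the tested condition, 3 arrays, carried a lentivirus for the first short hairpin RNA (shRNA) against KIAA1718, and are called knockdown arrays below. Cells of the control condition, 3 arrays, carried a lentivirus for an shRNA against luciferase, an enzyme mouse cells lack. Both were sorted for GFP, so the infected and sorted state is shared by all 6 arrays. KIAA1718 is the protein of Kdm7a, an enzyme that removes methyl groups from lysines 9 and 27 of histone H3. Each condition rests on 1 shRNA, so off-target effects of that sequence and loss of KIAA1718 cannot be told apart.

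Keratins are the intermediate filament proteins of epithelial cells. A filament is built from heterodimers of 1 type I and 1 type II chain, and a chain without a partner is degraded. Krt8 and Krt18 form the first keratin pair of the mouse embryo, laid down in the trophectoderm, and remain the pair of simple, single-layered epithelia. Krt19 is a type I keratin that lacks most of the tail domain and also pairs with Krt8. Krt7 is the other type II keratin of simple and ductal epithelia, Krt17 is a type I keratin of stress and of skin appendages, and Krt42 is a type I keratin encoded next to Krt17 in the mouse.

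The target itself gave no check of the labels. The brightest Kdm7a probe set had signals of 40.9, 23.8 and 34.9 on the knockdown arrays and 33.3, 31.2 and 44.9 on the luciferase arrays, and the ranges overlapped (log2 difference -0.20, 95% interval -0.54 to 0.13, limma adjusted p = 0.533). Median signals per array ran from 9.58 to 13.3. Arrays of a group correlated at 0.983 to 0.988 and arrays of different groups at 0.976 to 0.985. Embryonic stem cell identity was visible on every array: Pou5f1, the gene of Oct4, had signals of 916 to 1151 on knockdown arrays and 1072 to 1131 on luciferase arrays. Replicates are the arrays numbered 1 to 3 in the labels. Whether they stem from separate infections is not stated, and the spread behind each p-value may therefore be technical.

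Krt8, Krt18 and Krt19 were higher on every knockdown array than on any luciferase array, while Krt7, Krt17 and Krt42 showed overlapping ranges in their brightest probe sets. Such a separation, in either direction, was common: deposited signals of the groups did not overlap for 22.7% of the 12734 genes tested. Of the 6 members, 3 passed the threshold of the fit across all probe sets, and all 3 were higher. Among all 12734 genes tested, 4.82% passed in either direction, 2.65% higher and 2.18% lower. Because the members were picked with this contrast known, the count and the differences below are a description, and no p-value is given for a member. Differences are on the scale of log2(signal + 16) after quantile normalization, which understates the change of dim probe sets. Signals are the deposited, unscaled intensities.

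**Figure D1:**
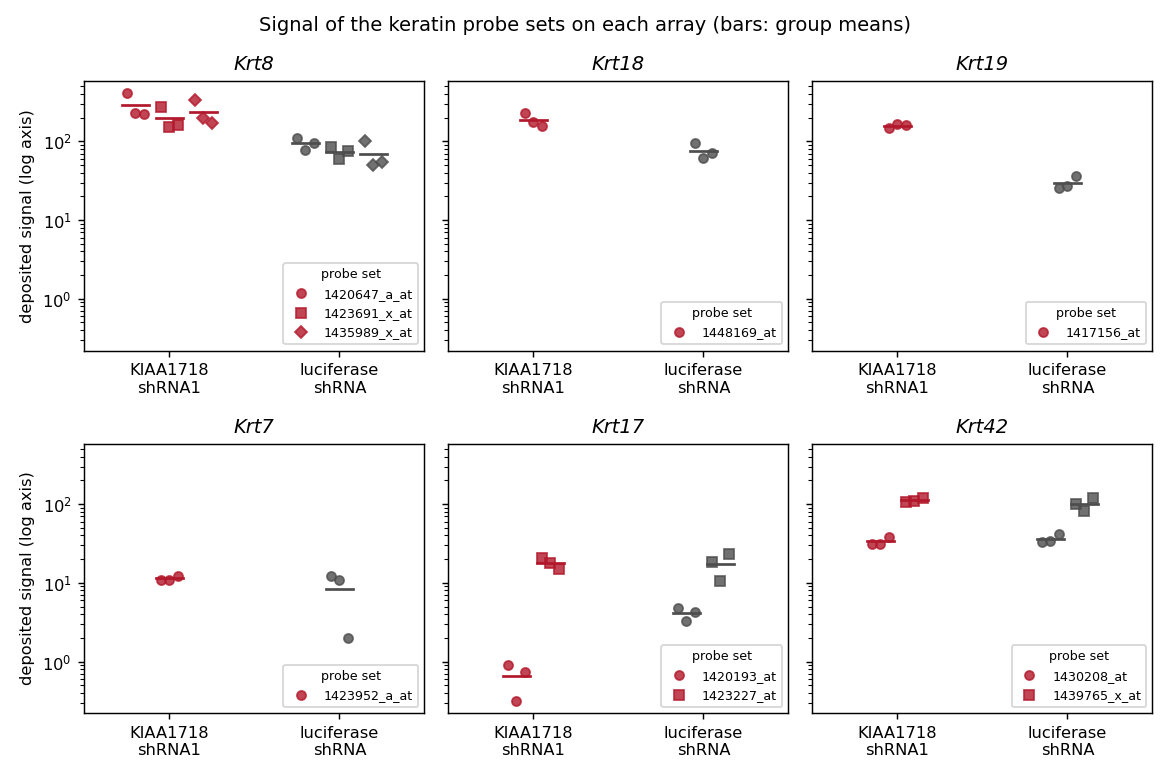
Deposited signal (log axis) of every probe set of the 6 keratin genes on the 3 KIAA1718 shRNA1 arrays (red, left) and the 3 luciferase shRNA arrays (grey, right), with each group's mean as a bar and marker shapes for probe sets. The groups separate for Krt8, Krt18 and Krt19, and for the dim Krt17 probe set with signals of 0.313 to 4.75.

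Krt8, the type II chain, was measured by 3 probe sets. Its brightest had signals of 409, 232 and 220 on knockdown arrays and 109.8, 78.2 and 96.4 on luciferase arrays. All knockdown values lay above all luciferase values, and knockdown replicate 1 stood above the other two. The log2 difference was 1.28 ± 0.23 (SE, 95% interval 0.78 to 1.78), the 17th largest increase of the 12734 genes. It was 1.18 and no longer past the threshold without luciferase replicate 3, and 0.97 and past it without knockdown replicate 1. The other Krt8 probe sets differed by 1.09 and 1.44, each without overlap. Both carry the suffix x, which marks probes that can match other transcripts, so they are not separate evidence of the size.

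Krt18, the type I partner of Krt8, was measured by 1 probe set. Its signals were 229, 179 and 156 on knockdown arrays and 95.2, 61.1 and 72.3 on luciferase arrays. The groups did not overlap, and replicate 1 was the highest array in each group, as it was for Krt8. The difference was 1.02 ± 0.19 (SE, 95% interval 0.60 to 1.45), the 38th largest increase. It was no longer past the threshold without luciferase replicates 2 or 3 or without knockdown replicates 1 or 2, at 0.97, 0.89, 0.84 and 1.03. On the normalized scale the within-array difference of Krt8 minus Krt18 was 0.80, 0.34 and 0.46 on knockdown arrays and 0.18, 0.30 and 0.34 on luciferase arrays. The ranges overlapped at their edge, and the knockdown value was the higher in each of the 3 pairs of arrays with the same number. In bulk RNA, more cells that express a gene and more RNA per cell cannot be told apart.

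Krt19, the tail-less type I chain, had the largest difference of the members. Its signals were 148, 166 and 163 on knockdown arrays and 25.8, 27.3 and 36.7 on luciferase arrays. The knockdown arrays lay close together, and the gap between the groups was wide against their spread. The difference was 1.82 ± 0.12 (SE, 95% interval 1.56 to 2.07), the 5th largest increase of all genes tested. Without any 1 array it ran from 1.78 to 1.85, always past the threshold. Krt19 minus Krt18 was -0.57, -0.10 and 0.06 on knockdown arrays and -1.41, -0.88 and -0.72 on luciferase arrays (log2), so Krt19 gained 0.80 on Krt18. Against Krt8 it gained 0.54, with values of -1.38, -0.44 and -0.40 on knockdown arrays and -1.59, -1.17 and -1.06 on luciferase arrays, ranges that overlapped, with the knockdown value higher in each of the 3 same-numbered pairs. Only the change of such a value between arrays can be read, since each probe set has its own brightness.

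**Figure D2:**
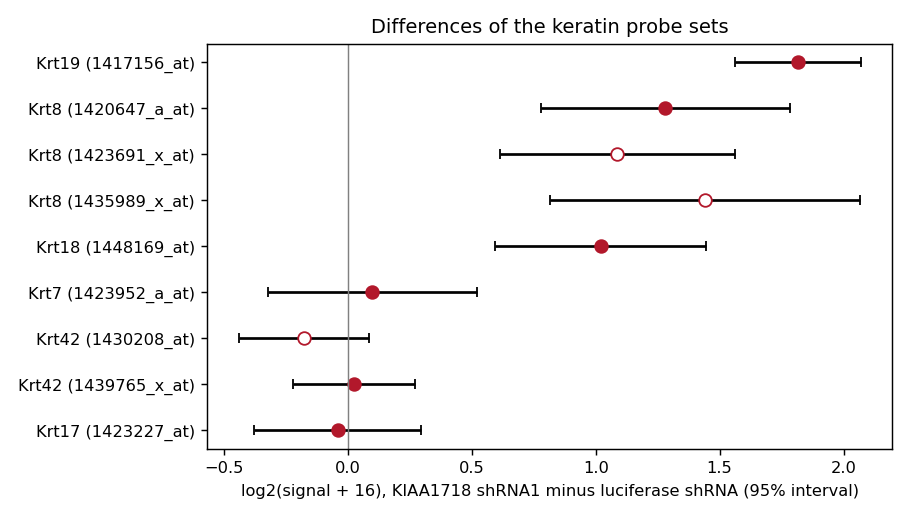
Log2 difference, KIAA1718 shRNA1 minus luciferase shRNA, of the 9 keratin probe sets above the filter, with 95% intervals from limma. Filled points are the probe set that stands for the gene, and open points are further probe sets. The intervals of Krt19, Krt8 and Krt18 lie above 0, from 0.60 upwards, and those of Krt7, Krt42 and Krt17 include 0.

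The remaining type II keratin, Krt7, was dim. Its signals were 10.8, 11.01 and 12.3 on knockdown arrays and 12.2, 10.9 and 1.99 on luciferase arrays. The groups overlapped, and luciferase replicate 3 alone was low. The difference was 0.10 (95% interval -0.32 to 0.52).

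Krt17 was covered by 2 probe sets that disagree. The brighter had signals of 20.5, 17.9 and 14.9 on knockdown arrays and 18.4, 10.5 and 23.0 on luciferase arrays, which overlapped, with a difference of -0.04 (95% interval -0.38 to 0.29). The dimmer had 0.897, 0.313 and 0.734 on knockdown arrays and 4.75, 3.29 and 4.27 on luciferase arrays. Those of the dimmer set separate the groups, with knockdown lower, but all lie below the filter on dim probe sets, so this probe set was not tested. A further probe set assigned jointly to Krt17 and Krt14 was not counted as a member.

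Krt42 had 2 probe sets with clear signal and little difference. The brighter, which stands for the gene, had 106.7, 108.6 and 121 on knockdown arrays and 100.1, 82.8 and 120.1 on luciferase arrays. It carries the suffix x, as 2 Krt8 probe sets do, so other transcripts can add to its signal. The other had 31.2, 31.6 and 38.6 on knockdown arrays and 33.0, 34.1 and 41.8 on luciferase arrays. Both ranges of deposited signals overlapped, and the differences were 0.03 (95% interval -0.22 to 0.27) and -0.18 (95% interval -0.44 to 0.08). After normalization the dimmer set no longer overlapped and was lower on knockdown arrays. Its values were 5.59, 5.54 and 5.63 on knockdown arrays and 5.76, 5.82 and 5.72 on luciferase arrays (log2).

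The members lie in the mouse's 2 keratin clusters. Krt7, Krt8 and Krt18 are on chromosome 15 and Krt17, Krt19 and Krt42 on chromosome 11, by the RefSeq annotation of GRCm38.p6, so both clusters hold members that were higher and members that were not. Krt8 and Krt18, a type II and a type I gene, are next to each other among the genes on the array. On the far side of Krt18 lies Eif4b, a translation factor gene, with a difference of -0.01 (limma adjusted p = 0.949). On the far side of Krt8 lies Krt78, with signals of 0.805 to 7.34 on knockdown arrays and 0.926 to 1.48 on luciferase arrays, too dim to be tested. The neighbours of Krt19, Krt15 and Krt14, had signals of at most 4.75 on knockdown arrays and at most 6.72 on luciferase arrays, and were not tested either. Krt80, beside Krt7, differed by 0.08 (limma adjusted p = 0.831). Krt88 on the other side of Krt7, Krt16 beside Krt17 and Gast beside Krt42 were below the filter.

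Promoter windows are shown for Krt8 and Krt18, the partners that were higher together, and for Krt7, the type II gene of the same chromosome whose ranges overlapped. Each window runs from 250 bases before to 50 bases after the RefSeq start of the gene, 5′ to 3′ on the gene's strand, from RefSeq, build GRCm38.p6. The window of Krt8 is chr15:102004293-102004592 on the minus strand, that of Krt18 chr15:102027966-102028265 on the plus strand, and that of Krt7 chr15:101412153-101412452 on the plus strand. Capitals mark matches, on either strand, to the TATA box TATAAA, the GC box GGGCGG, the AP-1 site TGANTCA and the E-box CACCTG that Snail and Zeb repressors bind.
Krt8: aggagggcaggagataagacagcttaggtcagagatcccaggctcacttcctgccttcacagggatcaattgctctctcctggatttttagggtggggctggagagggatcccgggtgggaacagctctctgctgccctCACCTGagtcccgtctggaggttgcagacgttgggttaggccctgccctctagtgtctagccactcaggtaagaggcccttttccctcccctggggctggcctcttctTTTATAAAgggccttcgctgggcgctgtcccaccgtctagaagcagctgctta
Krt18: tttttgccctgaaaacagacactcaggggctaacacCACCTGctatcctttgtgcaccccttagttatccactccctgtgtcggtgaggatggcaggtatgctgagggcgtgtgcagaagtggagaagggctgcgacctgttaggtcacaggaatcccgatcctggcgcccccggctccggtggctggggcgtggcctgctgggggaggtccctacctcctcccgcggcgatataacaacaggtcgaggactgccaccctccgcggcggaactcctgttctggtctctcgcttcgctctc
Krt7: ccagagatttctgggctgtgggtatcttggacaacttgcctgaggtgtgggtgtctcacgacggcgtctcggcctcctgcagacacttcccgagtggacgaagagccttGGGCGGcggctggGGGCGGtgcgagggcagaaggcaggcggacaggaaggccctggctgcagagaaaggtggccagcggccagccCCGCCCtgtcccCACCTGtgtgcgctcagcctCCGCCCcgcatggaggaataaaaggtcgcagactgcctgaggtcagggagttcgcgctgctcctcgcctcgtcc
All 3 windows hold CACCTG, beginning at -111 in Krt8, -214 in Krt18 and -44 in Krt7, counted from the annotated start as 0; 20.2% of the 32851 promoter windows in the table hold it. TATAAA overlaps the annotated start of Krt8, in both orientations on overlapping bases, and was absent from the windows of Krt18 and Krt7 (13.6% of all windows). GGGCGG was found 4 times in Krt7, counting both strands, and in neither Krt8 nor Krt18 (35.7% of all windows). TGANTCA was found in none of the 3 (7.81% of all windows). Krt42 also had a window, with TATAAA beginning at 19 and none of the other motifs, and Krt17 and Krt19 were not in the table. A match describes the letters of the window only.

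The other keratins on the array were mostly dim and none passed. Of 42 further keratin genes, 32 lay below the filter, and the mean signal of the brightest probe set of each gene ran from 0.321 to 37.3 with a median of 3.46. None of the 10 tested passed in the limma fit, and 1 had an unadjusted p under 0.05, as 22.0% of all genes tested did. Their differences ran from -0.22 to 0.35 with a median of 0.08, against a median of -3.81e-05 over all genes. The smallest p belonged to Krt12, a keratin of the cornea, at signals of 8.83, 13.1 and 13.9 on knockdown arrays and 4.47, 6.88 and 3.22 on luciferase arrays (difference 0.35, limma adjusted p = 0.212). Krt81, a hair keratin, differed by 0.27 (limma adjusted p = 0.365). The stratified epithelium keratin Krt5 had signals of 3.77 to 9.17 on knockdown arrays and 7.34 to 8.75 on luciferase arrays.

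Among other intermediate filament genes, Nefl, the light neurofilament chain, rose. Its signals were 308, 491 and 542 on knockdown arrays and 209, 147 and 234 on luciferase arrays (difference 0.96 ± 0.16, limma adjusted p = 0.00921). It was the member past the threshold among 14 tested, against 4.82% of all genes, and the list's median was -0.09. Unadjusted p-values of the limma fit were under 0.05 for 6 of the 14, against 22.0% of all genes. Synm, which encodes synemin, differed by 0.52 (limma adjusted p = 0.0791). Vim, the filament gene of mesenchymal and undifferentiated cells, had 1865, 2370 and 2630 on knockdown arrays and 1821, 2394 and 3000 on luciferase arrays, with overlap (difference -0.15, limma adjusted p = 0.603). With replicate number as a block, 3 of the 14 passed, against 7.83% of all genes. Nefl passed in 14 of 16 alternative settings.

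Of the proteins that anchor keratin filaments or bind them, the desmosomal linker rose. Dsp encodes desmoplakin, which ties keratin filaments to desmosomes, the spot junctions of epithelia. Its signals were 258, 264 and 276 on knockdown arrays and 108.0, 92.0 and 116 on luciferase arrays. The groups were far apart, with a difference of 1.09 ± 0.11 (limma adjusted p = 0.000509). Pkp2, encoding the desmosomal plaque protein plakophilin 2, rose by 0.47 ± 0.11 (limma adjusted p = 0.0439), with 442, 587 and 507 on knockdown arrays and 335, 307 and 339 on luciferase arrays. Hspb1, a small heat shock protein gene, fell by 0.44 (limma adjusted p = 0.0207). Across the alternatives Dsp passed in all 16, Hspb1 in 8 and Pkp2 in 6. Of 24 tested members 2 rose, 1 fell and 21 did not pass, against 2.65% higher and 2.18% lower among all genes. The list's median was 0.03, and 4 of the 24 had an unadjusted p under 0.05 in the limma fit, against 22.0% of all genes. The plakoglobin gene Jup, of the same junctions, differed by -0.01 (limma adjusted p = 0.979), and Plec, the gene of the linker plectin, by -0.37 (limma adjusted p = 0.261).

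In the list of epithelial junctions and epithelial state, 3 of 29 tested members rose, 1 fell and 25 did not pass. Among all genes tested, 2.65% passed higher and 2.18% lower. Cldn7, a tight junction claudin gene, had signals of 118, 103 and 92.5 on knockdown arrays and 53.5, 31.2 and 49.97 on luciferase arrays (difference 0.89 ± 0.17, limma adjusted p = 0.0160). Prom1, which encodes a protein of apical membrane protrusions, rose by 0.88 (limma adjusted p = 0.0101). Marveld2, the gene of tricellulin at three-cell tight junctions, rose by 0.60 (limma adjusted p = 0.0265). Spint1, a membrane inhibitor of serine proteases, fell by 0.71 (limma adjusted p = 0.00900). The list's median was 0.15, and 19 of 29 differences were above 0. An unadjusted p under 0.05 in the limma fit was found for 12 of the 29, against 22.0% of all genes. The adherens junction gene Cdh1 had 1318, 1306 and 1263 on knockdown arrays and 942, 973 and 1231 on luciferase arrays, without overlap, and did not pass (difference 0.20, limma adjusted p = 0.232). Signals of the 2 groups did not overlap for 22.7% of all genes tested. With replicate number as a block, 7 of the 29 passed, against 7.83% of all genes. Spint1 passed in 15 of 16 alternatives, Prom1 in 13, Cldn7 in 10 and Marveld2 in 9.

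Transcription factor genes of the AP-1 and Ets families and of epithelia showed 3 decreases and no increase among 29 tested. The shares of all genes tested were 2.18% lower and 2.65% higher. Klf4 fell by 0.91 ± 0.11, with 640, 593 and 594 on knockdown arrays and 906, 1032 and 1280 on luciferase arrays (limma adjusted p = 0.00122). Klf5 fell by 0.75 (limma adjusted p = 0.00952) and the Ets factor gene Etv4 by 0.65 (limma adjusted p = 0.0112). Klf4 passed in all 16 alternatives, Klf5 in 14 and Etv4 in 13. The 26 others included the AP-1 genes Jun at 0.03 and Junb at -0.14 (limma adjusted p = 0.955 and 0.685). The list's median was -0.08, and 7 of the 29 had an unadjusted p under 0.05 in the limma fit, against 22.0% of all genes.

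**Figure D3:**
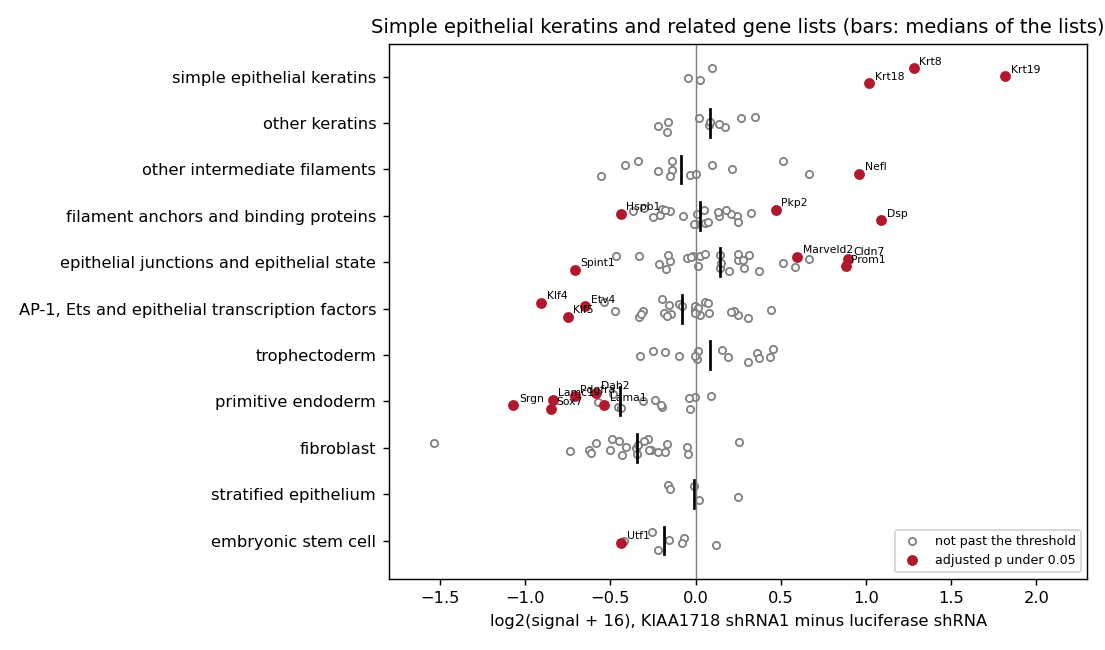
Log2 difference, KIAA1718 shRNA1 minus luciferase shRNA, of each tested gene (points, spread vertically at random within a row) in the keratin family, related lists and lists of cell type markers, with list medians as bars. Filled points passed an adjusted p of 0.05 in limma. Krt19, Krt8, Dsp and Krt18 lie farthest to the right.

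Krt8 and Krt18 are textbook markers of the trophectoderm, whose other tested markers did not pass, many of them at low signal. None of 14 tested trophectoderm genes passed in the limma fit, and 3 had an unadjusted p under 0.05, a share close to the 22.0% of all genes. The list's median was 0.08. Id2 differed by 0.46 and Fgfr2 by 0.36 (limma adjusted p = 0.149 and 0.157). Cdx2, the defining transcription factor gene, had 21.6, 30.8 and 19.8 on knockdown arrays and 10.1, 18.3 and 14.3 on luciferase arrays, at low signal and without overlap (difference 0.31, limma adjusted p = 0.357). The mean over the list was 5.68, 5.68 and 5.57 on knockdown arrays and 5.59, 5.48 and 5.55 on luciferase arrays (log2, exact permutation p = 0.2, two-sided). With unscaled signals, where all genes shifted by 0.11 at the median, the list mean differed by 0.20 (exact permutation p = 0.1). The smallest p that 3 against 3 arrays allow is 0.1. None of the 5 tested markers of stratified epithelium passed in the limma fit either, and 0 had an unadjusted p under 0.05, against 22.0% of all genes. Sfn, the gene of the 14-3-3 protein stratifin, differed by 0.25 (limma adjusted p = 0.312).

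In primitive endoderm, the extraembryonic layer that also uses Krt8 and Krt18, 6 of 18 tested markers fell, none rose and 12 did not pass. The list's median was -0.45, and 9 of the 18 had an unadjusted p under 0.05 in the limma fit, against 22.0% of all genes. Of all genes tested, 2.18% passed lower and 2.65% higher. The number of these markers past the threshold was 3 with unscaled signals and 1 without the filter on dim probe sets. It was 2 with the mean of fibroblast markers as a covariate, and 1 to 8 when 1 array was left out. Srgn fell by 1.07, Sox7 by 0.85 and Lamc1, a laminin gene, by 0.84 (limma adjusted p = 0.00224, 0.00830 and 0.0119). Pdgfra fell by 0.71, Dab2 by 0.59 and Lama1 by 0.54 (limma adjusted p = 0.0266, 0.0343 and 0.0446). Srgn passed in all 16 alternatives, Sox7 in 13, Lamc1 in 12, Pdgfra in 8, Dab2 in 7 and Lama1 in 5. The list mean was 6.06, 6.02 and 6.06 on knockdown arrays and 6.33, 6.56 and 6.498 on luciferase arrays (log2, exact permutation p = 0.1). Among 8 embryonic stem cell markers Utf1 fell by 0.44 (limma adjusted p = 0.0243, past the threshold in 6 of 16 alternatives), and 7 did not pass, Zfp42 among them at -0.22 (limma adjusted p = 0.154). Only 1 of the 8 differences was above 0, and their median was -0.19. An unadjusted p under 0.05 in the limma fit was found for 4 of the 8, against 22.0% of all genes. Their mean was 10.26, 10.16 and 10.23 on knockdown arrays and 10.36, 10.41 and 10.43 on luciferase arrays (log2, exact permutation p = 0.1). On unscaled signals their mean differed by -0.08 (exact permutation p = 0.6). With replicate number as a block, 2 of the 8 passed, against 7.83% of all genes.

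Markers of fibroblasts, which serve as a feeder layer in many stem cell cultures, varied between arrays. The mean of all 23 markers was 6.96, 7.30 and 7.32 on knockdown arrays and 7.08, 7.86 and 7.80 on luciferase arrays (log2, difference -0.39, exact permutation p = 0.3). In each group, the array with the lowest fibroblast mean was replicate 1, which had the highest Krt8 and Krt18. Col1a1, the collagen gene that defines these cells, differed by -1.53 (limma adjusted p = 0.0713) and Thy1 by -0.62 (limma adjusted p = 0.0573). None of the 23 passed in the limma fit, and 5 had an unadjusted p under 0.05, a share close to the 22.0% of all genes. Differences were below 0 for all but 1 of the 23, with a median of -0.35. With replicate number as a block 9 of the 23 passed, against 7.83% of all genes. The labels state a sort for GFP, which selects infected cells. Whether the fibroblast marker signals came from feeder cells was not tested. With the fibroblast mean as a covariate in the fit, an alternative chosen after seeing the data, Krt8 differed by 0.93 and Krt18 by 0.69, neither past the threshold, whereas Krt19 differed by 1.85 and Dsp by 1.01 (limma adjusted p = 0.00517 for Dsp), both past it. Cldn7, Prom1, Marveld2 and Pkp2, the primitive endoderm genes Sox7, Lama1, Dab2 and Pdgfra, and Utf1 were no longer past it in that fit. Over all genes, 233 passed in that fit, against 614 without the covariate. These named genes kept their direction, some with smaller differences (Cldn7 at 0.63) and some with larger ones (Pdgfra at -0.77). Why their calls were lost was not tested.

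**Figure D4:**
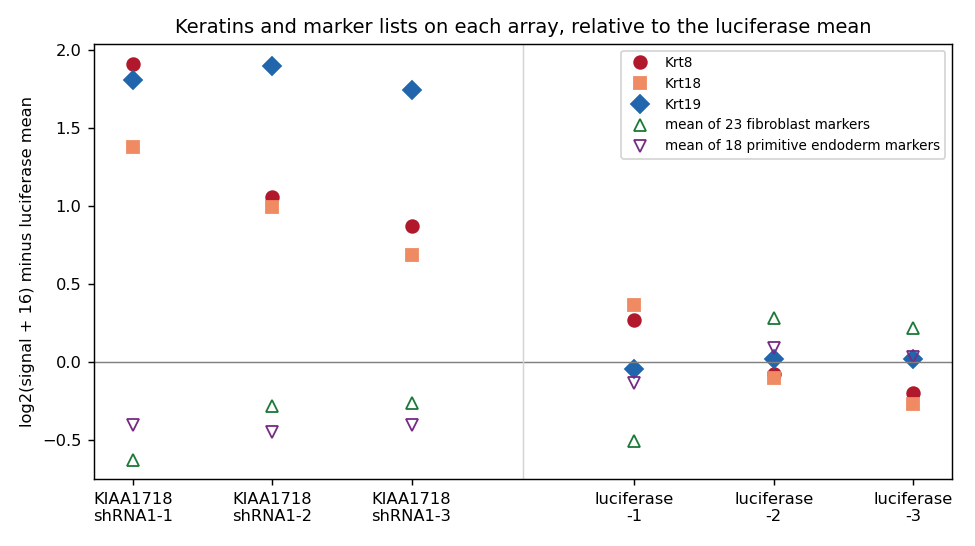
Log2(signal + 16) after quantile normalization on each array, relative to the luciferase mean, for Krt8, Krt18, Krt19 (filled) and for the means of the fibroblast and primitive endoderm markers (open). Knockdown arrays are at left. Krt8 runs from 0.87 to 1.91 on the knockdown arrays, Krt18 from 0.68 to 1.38, and Krt19 only from 1.75 to 1.90.

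The members that were higher therefore had different patterns over the knockdown arrays. Relative to the luciferase mean, Krt8 stood at 1.91, 1.06 and 0.87 and Krt18 at 1.38, 1.00 and 0.68, while Krt19 stood at 1.81, 1.90 and 1.75. On luciferase arrays Krt8 ran from -0.20 to 0.27, Krt18 from -0.26 to 0.37 and Krt19 from -0.04 to 0.02. The arrays with more Krt8 also had more Krt18 in both groups, and Krt19 did not follow that order.

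The genes with profiles most like the mean of Krt8, Krt18 and Krt19 over the 6 arrays were Car3, Sfmbt2, Ltb, Klhl13, Actc1 and Mest, in that order. Likeness was the root mean square difference between profiles centred on their means, and it ran from 0.124 (log2) for Car3 to 0.178 for Mest, against a median of 0.727 over all genes. Car3, a carbonic anhydrase gene, had signals of 279, 224 and 203 on knockdown arrays and 102.5, 62.7 and 91.8 on luciferase arrays. Sfmbt2, a polycomb-related gene, had 138, 113 and 140.1 on knockdown arrays and 38.7, 28.6 and 38.9 on luciferase arrays. Ltb, the lymphotoxin beta gene, had 78.0, 65.2 and 71.2 on knockdown arrays and 23.0, 10.4 and 17.2 on luciferase arrays. All 3 shared the separation of the groups that defines the keratin profile. Klhl13, which encodes an adaptor of a ubiquitin ligase, differed by 1.49, the cardiac actin gene Actc1 by 1.08 and the imprinted gene Mest by 1.25. These genes were chosen for their values on these arrays and are named as a description.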

How the data were processed

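Values are linear intensities, 1 per probe set and array, as deposited by the authors. They were made with GCOS, per the submitters' processing notes; no source used here gives its version or settings. Array medians differed, so signals were quantile normalized, 16 was added and log2 taken. The 64 control probe sets and the dimmest 40% were left out, keeping 27022. Groups were compared with limma 3.58.1 in R 4.3.3 (intensity trend, two-sided, Benjamini-Hochberg over all probe sets, threshold 0.05). The brightest tested probe set with 1 symbol stood for a gene. Of 45037 probe sets, 34945 had 1 symbol, 932 had several and 9160 have no name here. Names were brought up to date by Entrez number from the RefSeq table of GRCm38.p6. The number of arrays limits the precision.

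Members and lists were chosen with earlier results of these data known. Named are the members, Kdm7a, up to 6 genes of a list past the threshold with the largest difference (where 1 or none passed, the 2 of lowest p), the members' nearest neighbours on the array, and the 6 genes most alike in profile. Pou5f1, Krt5, Vim, Jup, Plec, Cdh1, Jun, Junb and Cdx2 were named after their values were seen.

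Same-numbered arrays deviated together from their group means (correlations of 0.202, 0.125 and 0.130 for numbers 1, 2 and 3; -0.150 to 0.0236 for unequal numbers), so the numbers were treated as pairs in an alternative fit; the pairing comes from the data only. No pair of arrays was identical: at least 45100 probe sets differed. The fit was tested on simulated data of this comparison with 27022 probe sets: it recovered 7.46% of 67 changes of 0.5 (log2), 80.6% of 67 of 1 and 86.4% of 66 of 1.5, with 4 false calls among 120.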

Additional observations from a re-analysis of the deposited data

How the results depend on the processing

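Each result was recomputed under 16 alternatives, 1 of them, the fibroblast covariate, chosen after seeing the data. Krt19 kept its direction and its call in all 16, from 1.53 to 2.13 (log2). Krt8 kept its direction in all 16 but lost its call without a filter on dim probe sets (1.28), with the fibroblast mean as a covariate (0.93) and without luciferase replicate 3 (1.18); without 1 array it ran from 0.97 to 1.49. Krt18 also kept its direction and lost its call without that filter (1.02), with the covariate (0.69), and without luciferase replicates 2 or 3 or knockdown replicates 1 or 2 (0.97, 0.89, 0.84 and 1.03); without 1 array it ran from 0.84 to 1.20. Lack of a filter left the differences as they were, while the probe sets in the fit and in the adjustment changed. With only the dimmest 20% left out, Krt8 and Krt18 kept their calls. The cause of the lost calls was not tested. Krt7, Krt17 and Krt42 passed in none of the 16, and their differences ran across 0, from -0.15 to 0.29, -0.20 to 0.05 and -0.08 to 0.14. With unscaled signals all genes shifted by 0.11 at the median, and Krt8, Krt18 and Krt19 stood at 1.41, 1.14 and 1.93.

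The count of changed genes was 614, with 54.9% of them higher (81.1% with unscaled signals). It was 366 with unscaled signals, 197 without the filter, 387 without an intensity trend, 997 with replicate number as a block, 952 with the mean of all probe sets of a gene and 233 with the covariate; without 1 array it ran from 161 (luciferase replicate 3) to 523, and was 291 without luciferase replicate 2 and 390, 317 and 203 without knockdown replicates 1, 2 and 3. Of the genes in the lists, 18 passed, against 5 without the filter, 33 with the block, 10 with the covariate and 4 to 32 without 1 array. The block changed the call of no keratin member and of none of the list genes already past the threshold. Of 24 other named genes past the threshold, 9 passed in all 16 alternatives, and of the 384 values 87 lost the call and 0 turned direction. Of the list genes, only Dsp, Klf4 and Srgn were among the 9. The rest were Car3, Sfmbt2, Ltb, Klhl13, Actc1 and Mest, chosen for their profiles on these arrays, so their stability is no separate evidence. Dim probe sets such as those of Krt7 and Krt17 are limited by signal: values near 0 have no reliable order.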
